A study of Mus musculus with 8 samples.

Results

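The genes Kcnq1, Kcne1, Bsnd, Esrrb and Lrp2 were followed in the cochlea of mice with and without the microRNA miR-29a, to see whether loss of miR-29a was accompanied by a change in the transcripts of the potassium-secreting cells of the stria vascularis. They were taken by gene symbol, and the 5 symbols each matched 1 of the 21895 genes in the expression table. The table held 8 libraries made from cochlear total RNA. All were used here, although the study displays fewer replicates in each group without saying which libraries those were. There were 4 libraries labelled WT (WT1 to WT4) and 4 labelled miR-29a-/- (here KO1 to KO4), the latter from mice homozygous for the deletion. The series record gave an age of 21 days for both groups, whereas the study's methods gave an older age, so the age is uncertain. The methods described a C57BL/6 background, animals of both sexes and littermates from heterozygous parents. Neither the labels nor the methods tied a library to an animal or said whether cochleae were pooled, so the p-values below measure only the spread between these libraries. miR-29a itself was not analysed here, and the genotype labels were therefore not checked against the deleted gene.

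Marginal cells line the endolymph side of the stria vascularis, the epithelium in the lateral wall of the cochlear duct that keeps endolymph rich in potassium and at a positive potential. Potassium enters them from below through the sodium-potassium-chloride cotransporter Slc12a2 and the sodium pump, and leaves into endolymph through an apical channel made of the pore subunit Kcnq1 and the regulatory subunit Kcne1, while chloride returns through basolateral chloride channels that need the subunit barttin, encoded by Bsnd. Loss of Kcnq1, Kcne1 or barttin causes deafness in mice and humans. Of the 5 genes, Kcnq1 and Kcne1 thus encode potassium channel subunits and Bsnd a chloride channel subunit, but Esrrb and Lrp2 do not encode channels. Esrrb is an orphan nuclear receptor of the estrogen-related receptor family needed for marginal cell identity, and Lrp2 (megalin) is a very large endocytic receptor at the apical membrane of absorptive epithelia, marginal cells included.

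Whole cochlea contains many other cell types, and 2 of the 8 libraries stood apart before any comparison. The summed level of 7 neutrophil markers was 8966 FPKM (fragments per kilobase of transcript, scaled to library size) in WT1 and 29.6 in WT3, against 595 to 4802 in the other 6 libraries. The summed erythroid markers were likewise lowest in WT3 at 313 FPKM, against 1712 to 8009 in the others. The 10 most abundant genes held 17.6% of all FPKM in WT1 and 8.50% to 10.9% elsewhere. Values without WT1, or without both, are therefore given where that changed a call among the 5 genes or the count of a gene list. Markers of 2 other organs that use these channels, the kidney tubule and heart muscle, summed to at most 1.45 and 0.142 FPKM in any library. The 6 other marginal cell markers summed to 136 to 362 FPKM in WT and 212 to 273 in KO, with WT1 lowest and WT3 highest of the 8. Their part in the results was not tested. As deposited, the values carry no read counts, so the absolute depth is unknown. Relative depth estimated from the low values was 0.953 to 1.16 times the median.

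All 5 genes were detected in every library, at levels per length that differed widely between them. Lrp2 was highest and Bsnd lowest in 8 of 8 libraries, Lrp2 standing 3.69 to 5.89 times above Kcne1 and Kcnq1 8.41 to 15.2 times above Bsnd. Between these ends the order was Kcne1, Esrrb, Kcnq1, but neighbours were close. Kcne1 was above Esrrb in 7 of 8 libraries and Esrrb above Kcnq1 in 7 of 8, with the exceptions KO3 and WT1, and the ranges of these neighbours over the 8 libraries overlapped. No test was made of this order. The mean FPKM of Lrp2 ranked 410th and that of Bsnd 14724th of the 14990 genes with a mean of at least 0.5 FPKM, the genes that were tested. The 5 genes all passed that filter, but the KO mean of Bsnd lay below the limit, so Bsnd passed only through its WT libraries.

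**Figure D1:**
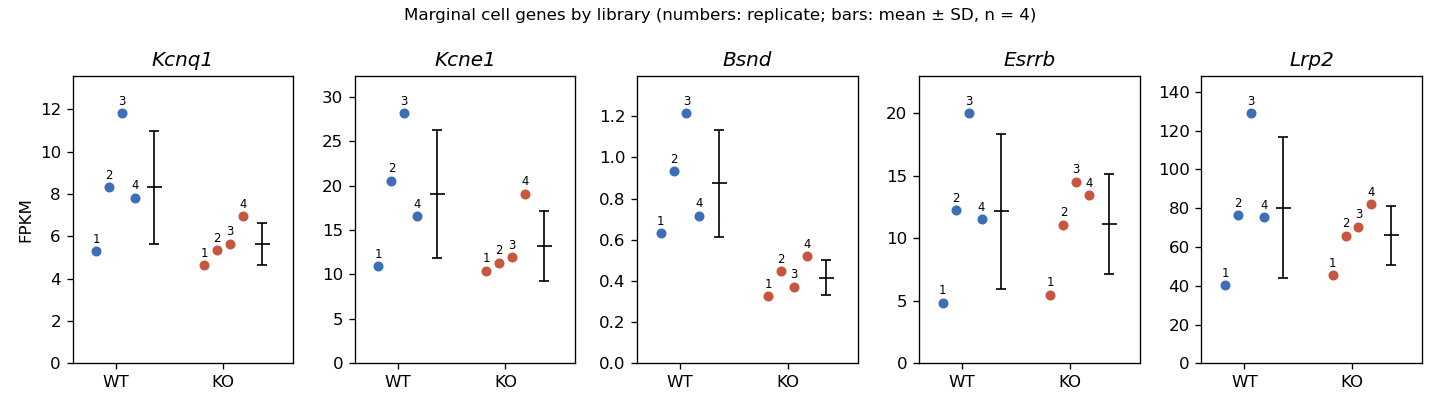
FPKM of each gene (y axis, starting at 0, with a scale of its own per panel) in the 4 WT (blue) and 4 KO (red) libraries, numbered by replicate, with the mean and SD of each group in black. The Bsnd groups are apart, 0.631 to 1.21 in WT and 0.325 to 0.521 in KO, whereas the other 4 genes overlap and WT3 is the highest library for each of the 5.

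Of the 5 genes, Bsnd, the barttin gene, had the clearest difference between the groups. It passed the filter of 0.5 FPKM only through its WT libraries. Its p-values and lack of overlap below are therefore descriptions and lend the difference no support. Its level was 0.631, 0.934, 1.21 and 0.717 FPKM in WT1 to WT4 and 0.325, 0.448, 0.372 and 0.521 FPKM in KO1 to KO4. Every KO library lay below every WT library. The WT mean was 0.874 ± 0.260 FPKM (SD, n = 4) and the KO mean 0.416 ± 0.0862 FPKM (SD, n = 4). On the scale of log2(FPKM + 0.1) the difference, KO minus WT, was -0.89 (SE 0.31, 95% interval -1.597 to -0.19), a 0.539-fold level, with an unadjusted limma p = 0.0187 and a two-sided exact permutation p = 0.0286, the smallest that 4 against 4 libraries allows. Among all tested genes, 4.61% were higher and 0.507% lower in KO at an unadjusted p under 0.05, and groups that did not overlap occurred for 3.02% of genes with KO higher and 0.487% with KO lower. After Benjamini-Hochberg adjustment over all 14990 genes the limma p of Bsnd was 0.947, and no gene had an adjusted p under 0.05, while 767 had an unadjusted p under 0.05. The fall of Bsnd thus passed only the unadjusted threshold, the one the study used, and it depended on WT3 for the call, giving -0.74 with an unadjusted limma p = 0.0525 when WT3 was left out, where an exact permutation test of 3 against 4 libraries cannot go below 0.0571. The size also moved with the scale, to -0.39 with a pseudocount of 1 and to -1.41 after quantile normalization, both still past the unadjusted threshold. In whole tissue, fewer marginal cells and less Bsnd RNA per cell cannot be told apart.

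Because a microRNA lowers its target transcripts by pairing its seed (bases 2 to 8) with their 3′-UTR, the annotated 3′-UTRs of the 5 genes were searched for the match to the miR-29 seed. The 3 mature family members, from RefSeq (GRCm38.p6), share 1 seed, shown in capitals, so the search does not separate the deleted miR-29a from miR-29b and miR-29c. miR-29a-3p lies on the minus strand at chr6:31062673-31062694.
mmu-miR-29a-3p: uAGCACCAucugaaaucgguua
mmu-miR-29b-3p: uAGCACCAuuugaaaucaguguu
mmu-miR-29c-3p: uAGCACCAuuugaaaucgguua
The 7-base match TGGTGCT was present at 2 places in the 1590-base 3′-UTR of Bsnd and at 0 in the longest annotated 3′-UTRs of Kcnq1 (917 bases), Kcne1 (2583), Esrrb (2563) and Lrp2 (1305). The sites lie at bases 312 to 318 and 702 to 708 of the Bsnd 3′-UTR, on the minus strand of GRCm38 at chr4:106484728-106484734 and chr4:106484338-106484344. They are printed 5′ to 3′ on the transcript strand with the match in capitals.
Bsnd site at base 312: tgattgggcctcctgTGGTGCTa
Bsnd site at base 702: gtccatttctctggcTGGTGCTt
The same match was found in 13.1% of the 20940 genes with an annotated 3′-UTR. A match in letters is a description of the annotated sequence only. Release from a microRNA raises a transcript, and Bsnd was lower in KO, with a log2 difference of -0.89. Whether the sites bear on the Bsnd values was not tested.

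Kcnq1 and Kcne1, which together form the apical potassium channel, both had lower mean levels in KO, but the groups overlapped and neither passed the test. Kcnq1 was at 5.30, 8.31, 11.8 and 7.82 FPKM in WT1 to WT4 and at 4.63, 5.34, 5.65 and 6.95 FPKM in KO1 to KO4. WT1 lay within the KO range, and the other 3 WT libraries lay above every KO library. The WT mean was 8.31 ± 2.68 FPKM (SD, n = 4) and the KO mean 5.64 ± 0.973 FPKM (SD, n = 4). The log2 difference was -0.51 (SE 0.25, 95% interval -1.08 to 0.06), with an unadjusted limma p = 0.0720, an exact permutation p = 0.114 and an adjusted limma p = 0.947. Kcne1 was at 10.95, 20.6, 28.1 and 16.6 FPKM in WT1 to WT4 and at 10.4, 11.3, 11.97 and 19.1 FPKM in KO1 to KO4. Here WT1 again lay among the KO libraries, and KO4 lay among the WT libraries. The WT mean was 19.05 ± 7.22 FPKM (SD, n = 4) and the KO mean 13.2 ± 3.99 FPKM (SD, n = 4). The log2 difference was -0.49 (SE 0.31, 95% interval -1.18 to 0.21), with an unadjusted limma p = 0.146, an exact permutation p = 0.257 and an adjusted limma p = 0.947.

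The call for these channel subunits turned on WT1, the library with the most neutrophil transcripts. Without WT1 the log2 difference was -0.70 for Kcnq1 (unadjusted limma p = 0.00662) and -0.72 for Kcne1 (0.0186), where an exact permutation test cannot go below 0.0571, and 7.40% of tested genes were then lower at an unadjusted p under 0.05. Without WT1, 7 of 7 neutrophil and 4 of 4 erythroid markers were also higher in KO past that threshold, beside 1810 of all 15019 tested genes. The part of these markers in the lower channel values was not tested. Without both WT1 and WT3, Kcnq1 was at -0.52 and passed the unadjusted threshold, Kcne1 did not pass, and the share of genes called lower was 6.97%. Rescaling each library by the median ratio of its genes also brought Kcnq1 (-0.61) and Kcne1 (-0.59) past the unadjusted threshold, with 2.42% of genes then called lower. As deposited, the median log2 difference of all tested genes was 0.10, and that scaling moved it to 0.004 and the split of calls from 691 higher and 76 lower to 402 higher and 363 lower. The Kcnq1 value carries a further limit. The Kcnq1 locus (chr7:143106362-143427042, plus strand, GRCm38) contains the antisense transcript Kcnq1ot1 (chr7:143203458-143296549, minus strand). Kcnq1ot1 was not analysed here, and whether fragments were counted by strand is not given in the sources used here.

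Esrrb and Lrp2, the nuclear receptor and the endocytic receptor, showed no difference that the test could separate from the spread between libraries. Esrrb was at 4.85, 12.2, 20.0 and 11.5 FPKM in WT1 to WT4 and at 5.48, 11.1, 14.5 and 13.4 FPKM in KO1 to KO4. Its range within WT covered the whole KO range. The WT mean was 12.1 ± 6.19 FPKM (SD, n = 4) and the KO mean 11.1 ± 4.03 FPKM (SD, n = 4). The log2 difference was -0.05 (SE 0.45, 95% interval -1.08 to 0.98), with an exact permutation p = 0.943 and an adjusted limma p = 0.992. Lrp2 was at 40.35, 76.2, 128.8 and 75.5 FPKM in WT1 to WT4 and at 45.5, 65.85, 70.5 and 82.2 FPKM in KO1 to KO4. The lowest and the highest of the 8 libraries were again WT1 and WT3. The WT mean was 80.2 ± 36.5 FPKM (SD, n = 4) and the KO mean 66.0 ± 15.3 FPKM (SD, n = 4). The log2 difference was -0.20 (SE 0.34, 95% interval -0.97 to 0.58), with an exact permutation p = 0.657 and an adjusted limma p = 0.983. The intervals are wide on both sides of 0 and contain the fitted difference of Bsnd, so a difference of that size lies within the error for either gene. Both signs turned when WT3 was left out, to 0.24 for Esrrb and 0.07 for Lrp2.

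The 5 point estimates all lay below 0, with a median of -0.49, whereas 33.5% of the 14990 tested genes lay below 0 and their median was 0.10. Bsnd passed the filter only through its WT libraries, so its sign lends no support, and Esrrb and Lrp2 lay above 0 without WT3. Values below 0 were not particular to the 5 genes. They were found for 4 of 6 other marginal cell, 7 of 9 intermediate cell, 4 of 4 strial basal cell and 4 of 5 hair cell markers. For spindle and root cell and fibrocyte markers it was 1 of 4 and 1 of 3. The 5 genes share libraries and, in part, a cell type, so they are not independent of each other.

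**Figure D2:**
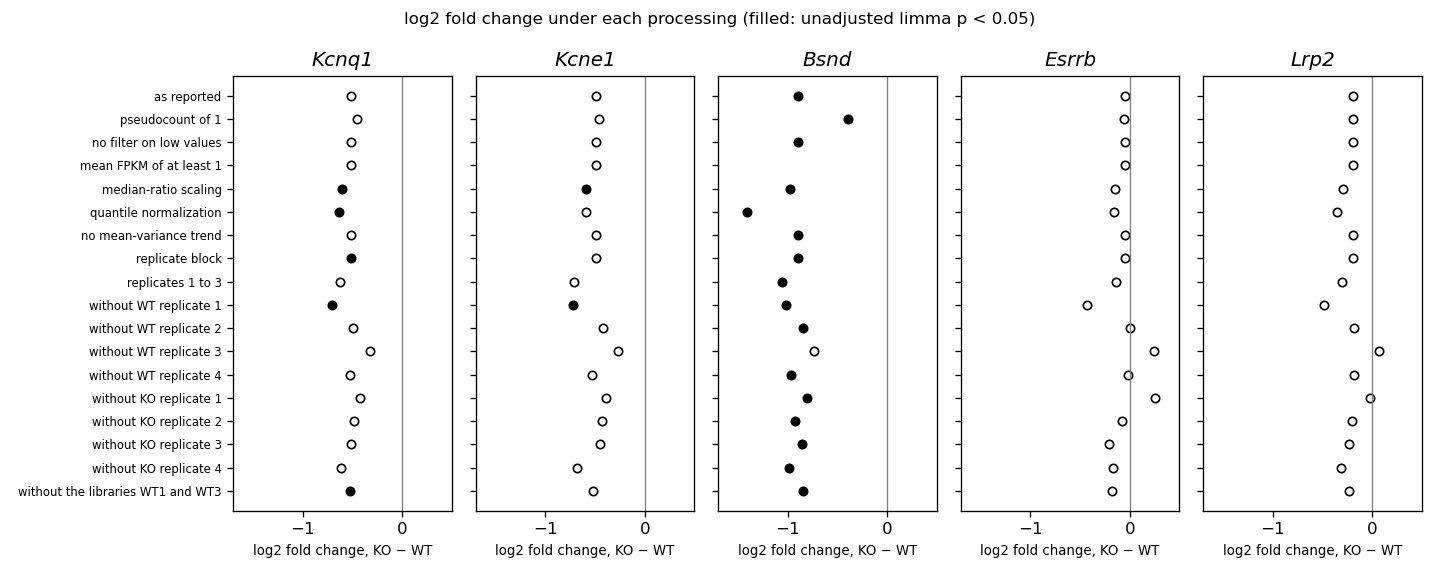
log2 difference, KO minus WT (x axis), of each gene under each way of processing the data (y axis), with filled points where the unadjusted limma p was under 0.05. Bsnd stays below 0 throughout and is unfilled only without WT3, Kcnq1 and Kcne1 stay below 0 and are filled in 5 and 2 alternatives, and Esrrb and Lrp2 have only unfilled points, on either side of 0. Bsnd has no point at a mean FPKM of at least 1, which its own mean does not reach.

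To compare the genes within a library, each gene was divided by Kcnq1 of the same library, with the pseudocount of 0.1 added to both on the log2 scale. The potassium channel subunits stood in nearly the same proportion in both groups. The log2 ratio of Kcne1 to Kcnq1 averaged 1.16 ± 0.13 (SD, n = 4) across the WT libraries and 1.19 ± 0.18 (SD, n = 4) across the KO libraries, a difference of 0.02 (SE 0.11, two-sided exact permutation p = 0.886). As a linear ratio of FPKM, Kcne1 stood at 2.07, 2.48, 2.38 and 2.12 times Kcnq1 in WT1 to WT4 and at 2.26, 2.12, 2.12 and 2.75 times in KO1 to KO4. The groups overlapped over most of this range, and KO4 was the highest library.

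Barttin was lower relative to Kcnq1. The ratio of Bsnd to Kcnq1 was 0.119, 0.112, 0.103 and 0.0917 in WT1 to WT4 and 0.0702, 0.0839, 0.0658 and 0.0750 in KO1 to KO4. Every KO ratio lay below every WT ratio, including those of WT1 and WT3, the WT libraries lowest and highest in absolute level. The log2 ratio of values with the pseudocount averaged -3.09 ± 0.17 (SD, n = 4) across the WT libraries and -3.475 ± 0.12 (SD, n = 4) across the KO libraries, a difference of -0.38 (SE 0.11). Without a pseudocount the difference was -0.53. The two-sided exact permutation p was 0.0286, again the smallest possible, and 0.114 after Benjamini-Hochberg adjustment over the 4 ratios. Because Bsnd passed the filter only through its WT libraries, this p and the share of genes that follows are descriptions only. Over all 14989 other tested genes, 0.0334% (5 genes) had a ratio to Kcnq1 that was lower in KO without overlap and 26.7% had one that was higher, since Kcnq1 itself was low in KO. Beside Bsnd the 5 were Clec3a, Ecel1, Hist2h2aa1 and Tectb, named here after their values were seen, of which Tectb encodes a protein of the tectorial membrane. A pseudocount of 1, which is above most Bsnd values, turned the difference to 0.06.

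The ratios of the other 2 genes were on average higher in KO but did not pass the test. Lrp2 stood at 7.61, 9.18, 10.9 and 9.65 times Kcnq1 in WT1 to WT4 and at 9.85, 12.3, 12.5 and 11.8 times in KO1 to KO4. KO1 lay among the WT ratios and the other 3 KO libraries lay above all of them. The log2 difference was 0.31 (SE 0.14, exact permutation p = 0.0571, adjusted over the 4 ratios 0.114). Esrrb stood at 0.914, 1.47, 1.69 and 1.47 times Kcnq1 in WT1 to WT4 and at 1.19, 2.08, 2.57 and 1.93 times in KO1 to KO4, again with KO1 among the WT ratios and the other 3 above. Its log2 difference was 0.46 (SE 0.30, exact permutation p = 0.229, adjusted over the 4 ratios 0.305).

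**Figure D3:**
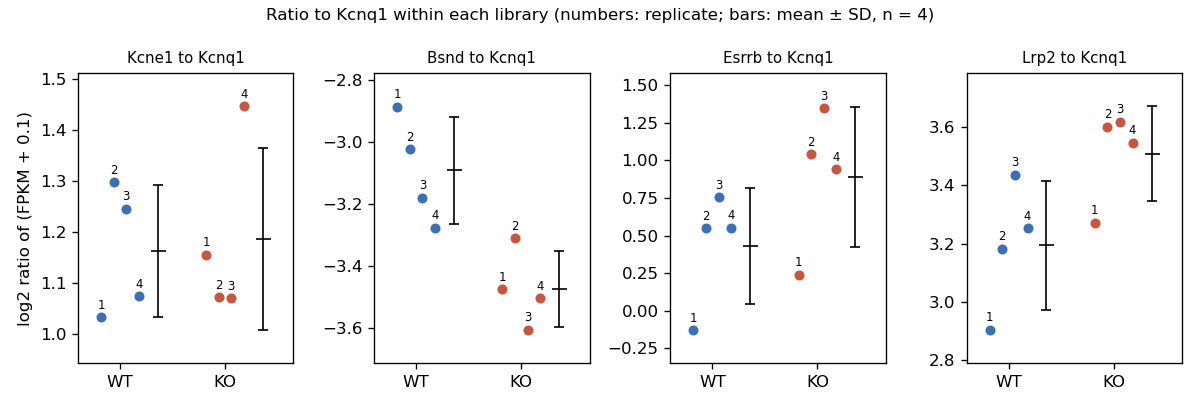
log2 ratio of each gene to Kcnq1 within the same library (y axis, a scale of its own per panel), in WT (blue) and KO (red), with the mean and SD of each group in black. The Bsnd ratio is lower in KO with no overlap, the Kcne1 ratio overlaps, and for Esrrb and Lrp2 only KO1 lies among the WT libraries.

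Across the 8 libraries the 5 genes varied together to different degrees. Kcnq1 and Kcne1 had a Pearson r of 0.969 on the log2 scale (Spearman 0.976), and 0.938 without the 2 libraries farthest from the median of the 5-gene mean, WT3 and KO1. Esrrb and Lrp2 had an r of 0.954 (Spearman 0.857), and 0.949 without those libraries. Bsnd followed Kcnq1 (r = 0.905, 0.743 without the 2 libraries) more closely than it followed Lrp2 (0.629 and 0.018) or Esrrb (0.458 and -0.225). These are descriptions over 8 libraries that share their tissue composition, and no test was made. The mean log2 level of the 5 genes was 2.62, 3.47, 4.02 and 3.31 in WT1 to WT4 and 2.48, 2.92, 3.01 and 3.30 in KO1 to KO4, so KO1 and WT1 were lowest and WT3 highest. The neutrophil marker sums of these libraries were 8966 FPKM in WT1, 3081 in KO1 and 29.6 in WT3, and their part in the member levels was not tested.

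The 10 genes whose log2 level was most like the mean of the 5, among the 14122 other genes with a mean of at least 1 FPKM, had a Pearson r of 0.970 to 0.993 over the 8 libraries. They were Zfp799, Tspan6, Maneal, Klhdc10, Asic3, Msx3, Klhl15, Dnase1, Slc45a2 and Hpse. Without WT3 and KO1 their r was 0.901 to 0.987. So many genes shared this pattern that 218 had an r over 0.9. Asic3 encodes an acid-sensing ion channel, Slc45a2 a transporter of melanosomes, and Dnase1 an endonuclease.

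Partners of the 5 genes were taken from fixed lists. Of 21 genes of potassium and chloride handling in the lateral wall and hair cells, 21 were tested, 1 rose and 0 fell, beside 4.61% higher and 0.507% lower over all tested genes, and 15 lay below 0 with a median log2 difference of -0.11. A count of 1 in 21 is near the share of all genes. The gene was Kcnj16, an inward rectifier potassium channel subunit, at 4.89, 9.72, 14.4 and 2.62 FPKM in WT1 to WT4 and 12.9, 12.3, 15.97 and 16.5 FPKM in KO1 to KO4. Its groups overlapped through WT3, and the log2 difference was 1.12 (SE 0.47, 95% interval 0.06 to 2.18). Slc12a2, the basolateral cotransporter that brings potassium into marginal cells, had a log2 difference of -0.07 (95% interval -0.86 to 0.71). The sodium pump subunit Atp1b2 was at -0.30 (-1.01 to 0.405), and Kcnj10, the potassium channel of strial intermediate cells, at -0.29 (-0.88 to 0.30). Without WT1 the count became 0 higher and 6 lower, namely Kcnj13, Cldn11, Atp1b2, Kcnj10, Stk39 and Kcnk2, beside the 7.40% of all genes given above. Without both WT1 and WT3 it was 1 higher (Kcnj16) and 4 lower (Atp1b2, Kcnj10, Kcnj13 and Kcnk2), beside 6.97% of all genes lower. Kcnj13 was at 28.4 FPKM in WT2, against 5.01 to 9.09 in the other WT libraries and 5.59 to 9.46 in KO. The part of WT2 in its calls was not tested. Leaving out WT4 or any 1 KO library, not filtering low values, median-ratio scaling or quantile normalization brought the count to 0.

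**Figure D4:**
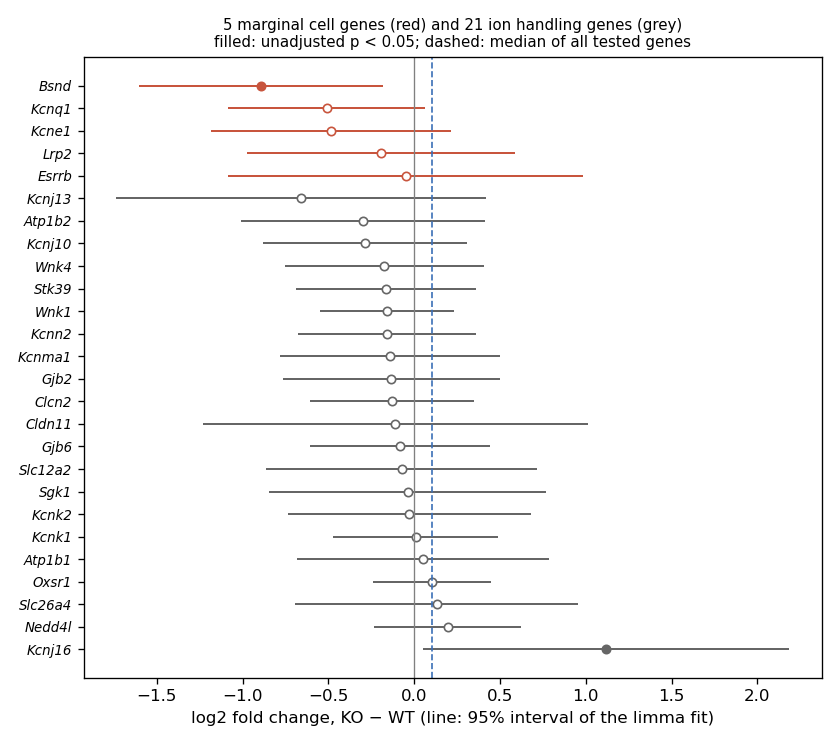
log2 difference, KO minus WT (x axis), with its 95% interval, of the 5 genes (red) and of the 21 tested genes of potassium and chloride handling (grey), filled where the unadjusted limma p was under 0.05. Bsnd and Kcnj16 are the filled points, on opposite sides of 0, and the dashed line is the median of all tested genes at 0.10.

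Among the relatives of Kcnq1 and Kcne1, 5 of the 7 listed genes of the Kcnq and Kcne families were tested and 0 passed in either direction, with a median of -0.11 and 4 below 0. Kcnq3, a neuronal channel subunit, had a log2 difference of -0.34 (95% interval -0.95 to 0.27). Without WT1, Kcnq3 passed the unadjusted threshold at -0.58, beside 7.40% of all genes lower. Without both WT1 and WT3 the count was 2 lower of 6 tested (Kcnq3 and Kcne5, which the table lists as Kcne1l), beside 6.97% of all genes lower. Over all 8 libraries Kcne5 was below the filter. It entered this fit only because WT1 (0 FPKM) and WT3 (0.256) were left out, and through WT2 (0.818) and WT4 (1.23), so its call is no support for a fall. Kcne2 was far higher in WT2 (16.9 FPKM) and KO3 (3.19 FPKM) than in the other libraries (0.506 to 1.13 FPKM). Those libraries also had the highest summed level of 5 choroid plexus markers, 2258 FPKM in WT2 and 313 in KO3, against 6.44 to 131 in the others, and whether this bears on Kcne2 was not tested. Of these 5 markers 0 passed over all 8 libraries, and 3 (Prlr, Slc4a5 and Ttr) were lower without both WT1 and WT3. That fit kept only WT2 and WT4 as WT libraries, and 6.97% of all genes were lower in it. The choroid plexus also expresses Lrp2, which was at 76.2 FPKM in WT2 and 70.5 in KO3, and its part in those values was not tested.

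Of 8 listed partners and relatives of megalin, 6 were tested, 0 passed in either direction, and 4 lay below 0 with a median of -0.18. Cubn and Amn, which act with megalin in the kidney and gut, were below the filter, with Cubn at 0.232 to 0.369 FPKM. Lrpap1, the chaperone of megalin, had a log2 difference of -0.24 (95% interval -0.60 to 0.13), and was lower past the unadjusted threshold without WT1, at -0.36, and with median-ratio scaling or quantile normalization. Without both WT1 and WT3 the list had 2 genes lower, Lrp1b and Lrp8, beside 6.97% of all genes lower. Of the 8 listed genes around Esrrb, 0 passed in either direction and 6 lay below 0, with a median of -0.14. Its paralogs Esrra and Esrrg had log2 differences of 0.54 (95% interval -0.61 to 1.70) and -0.06 (-0.77 to 0.66). Lmx1a, a transcription factor of marginal cells, was at -0.13 (-0.995 to 0.73). Without WT1, 4 of these 8 were lower (Lmx1a, Tbx18, Esrrg and Pou3f4), beside 7.40% of all genes, whereas 0 were lower without both WT1 and WT3. With median-ratio scaling 2 were lower, beside 2.42% of all genes. With quantile normalization 1 was lower, beside 547 of all 14990 tested genes.

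The letters AAGGTCA, part of the element bound by estrogen-related receptors, were searched on both strands of RefSeq promoters (GRCm38.p6, 250 bases before to 50 after the start). They were found in 4.72% of 32851 promoters, in 0 of 2 for Esrrb and in 0 of 1 for Lrp2. No promoter entry was matched for Kcnq1, Kcne1 or Bsnd.

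Marker lists of the other cell types in whole cochlea place these values. Of the 6 other marginal cell markers, 6 were tested and 0 passed in either direction, with a median log2 difference of -0.08. Without WT1, 2 were lower (Atp1b2 and Lmx1a) with a median of -0.37, beside 7.40% of all genes lower. Without both WT1 and WT3, 1 was lower (Atp1b2) with a median of -0.26, beside 6.97% of all genes lower. Of 10 intermediate cell markers, 9 were tested, 0 rose, and Tyr, the pigment enzyme, fell by 0.65 on the log2 scale (95% interval -1.196 to -0.105), with a median of -0.37 over the list. Tyr did not pass without WT3 or without KO3. In the fit without WT3, 1 gene of the list (Mlana) was higher, beside 537 of all 15017 tested genes. Median-ratio scaling gave 3 lower (Dct, Gsta4 and Tyr), beside 2.42% of all genes. Quantile normalization gave the same 3, beside 547 of all 14990 tested genes. Without WT1 the list had 5 genes lower, beside 7.40% of all genes. Without both WT1 and WT3 it had 4 lower and 1 higher, beside 6.97% of all genes lower. Strial basal cell markers (4 tested, median -0.10), hair cell markers (5, -0.22), neuronal markers (4, 0.14), myelin markers (3, -0.11), fibrocyte markers (3, 0.165), spindle and root cell markers (4, 0.115) and otoconial markers (2, 0.06) had no gene that passed. These counts too changed without WT1. Then 2 basal cell (Cldn11 and Sox8), 1 myelin (Mbp), 1 fibrocyte (Otor) and 1 otoconial gene (Otol1) were lower, beside 7.40% of all genes. In the same setting 1 spindle and root cell gene (Anxa1) was higher, beside 1810 of all 15019 tested genes. When both WT1 and WT3 were left out, 1 basal cell (Sox8), 1 fibrocyte (Otor) and 1 hair cell gene (Myo7a) were lower, beside 6.97%. Anxa1 was again higher, beside 1381 of 15055 genes. Quantile normalization gave 1 hair cell (Myo7a) and 1 spindle and root cell gene (Epyc) lower, beside 547 of 14990. Markers of blood, bone and muscle had higher medians, with neutrophil 2.47 (7 tested, 0 passed), erythroid 1.74 (4 tested, Alas2 higher), bone 0.87 (5 tested, Sost higher) and skeletal muscle 2.91 (4 tested, 0 passed). The sizes of the neutrophil, erythroid and muscle medians moved with single libraries. Without WT3 the neutrophil median was 0.84 and the erythroid 0.93, and without KO3, which held 229 FPKM of the muscle markers against at most 27.3 elsewhere, the skeletal muscle median was 1.45. Leaving out WT1 gave medians of 3.685 (neutrophil) and 2.32 (erythroid), and leaving out both WT1 and WT3 gave 1.92 and 1.38. In the latter setting 7 of 7 neutrophil, 3 of 4 erythroid and 2 of 5 bone markers were higher, beside 1381 of 15055 genes. With WT1 alone left out, 3 of 5 bone markers were higher, beside 1810 of 15019 genes. By group means, 2 neutrophil markers named after their values were seen, Mpo (93.4 FPKM in WT, 85.5 in KO) and Ngp (480.5 and 325), were lower in KO. Their WT means rested on WT1, at 322 FPKM for Mpo and 1772 for Ngp. In WT2 to WT4 they were at most 25.8 and 78.4 FPKM, below every KO library. Their fitted log2 differences were 2.50 and 2.32. The part of these tissues in the lower Bsnd values was not tested.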

How the data were processed

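Cochlear total RNA was depleted of ribosomal RNA and made into strand-specific libraries, and the methods name Hisat2 for mapping. The authors deposited FPKM per gene for 8 libraries. The program and annotation behind the FPKM are not given in the sources used here. The submitters' notes name mm9, but the gene positions in the table matched GRCm38 (GENCODE M21) for all 5 genes and for 19771 of 21895 genes, so GRCm38 positions are given. Values were taken as log2(FPKM + 0.1), genes with a mean of at least 0.5 FPKM were kept (14990), and WT and KO were compared with limma 3.58.1 in R 4.3.3 (empirical Bayes with a mean-variance trend, genotype as the only term), tested first on simulated data. The threshold was an unadjusted two-sided p under 0.05, as in the study, with Benjamini-Hochberg adjusted values over all tested genes beside it. The study tested counts, which were not used here, so a count model was not fitted. Ratios were compared with a two-sided exact permutation test (scipy 1.17.1). The named genes are the 5 genes, genes of 4 lists (those past the threshold always), the 10 genes most like the 5, and single markers that passed the threshold or whose groups did not overlap. Members, lists and tests were chosen with earlier results of these data known. The choroid plexus list was added after the Kcne2 values were seen. The 3′-UTRs were the longest annotated in GENCODE M21. Results for 6 of the listed genes are not reported here, and the lists are counted without them.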

Additional observations from a re-analysis of the deposited data

Results flagged for a closer look

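In 98 groups of 4 libraries (the 5 genes, their 4 ratios to Kcnq1 and the tested genes of the 4 lists, each in WT and in KO), 5 had a library far from the other 3 by Dixon's criterion, where chance gives about 1 in 20. None of the 5 was among the marginal cell genes or their ratios. Kcne2, a regulatory subunit of Kcnq channels, stood at 16.9 FPKM in WT2 against 0.536 to 1.13 in the other WT libraries, and at 3.19 in KO3 against 0.506 to 0.884 in the other KO libraries. Kcnj13, an inward rectifier potassium channel, was at 9.46 FPKM in KO3 against 5.59 to 6.08 in the other KO libraries. In WT it was at 28.4 FPKM in WT2 against 5.01 to 9.09 in the others, which the criterion did not flag. WT2 and KO3 had the highest choroid plexus marker sums, 2258 and 313 FPKM, whose part in these values was not tested. Lrp1 was at 64.0 FPKM in WT1 against 96.65 to 99.97 in the other WT libraries. It is a relative of megalin, and WT1 was also the lowest WT library for each of the 5 genes. Lrp1b was at 7.97 FPKM in KO4 against 2.385 to 3.18 in the other KO libraries.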

How the results depend on the processing

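Bsnd stayed below 0 in all alternatives that gave a value. It lost the call only without WT3, with a range of -1.02 to -0.74 over leaving out 1 library at a time, and it has no value at a mean FPKM of at least 1, since it is then filtered out. Kcnq1 stayed below 0 and passed with median-ratio scaling (-0.61), quantile normalization (-0.63), the replicate block (-0.51), without WT1 and without both WT1 and WT3 (-0.52), and ranged from -0.70 to -0.32 over leaving out 1 library. Kcne1 passed with median-ratio scaling (-0.59) and without WT1, with a range of -0.72 to -0.27. Esrrb turned positive without WT2 (0.007), WT3 (0.24) or KO1 (0.25), with a range of -0.43 to 0.25, and Lrp2 turned without WT3 (0.071), with a range of -0.49 to 0.071. Over the alternatives, the adjusted limma p ran from 0.160 to 1 for Bsnd and from 0.148 to 1 for Kcnq1. The Bsnd to Kcnq1 ratio turned with a pseudocount of 1 (0.058), was -0.435 with replicates 1 to 3, -0.383 with the replicate block, and -0.445 to -0.314 over leaving out 1 library. In those designs the exact test cannot pass (smallest p 0.1, 0.125 and 0.0571). The Kcne1 to Kcnq1 ratio, near 0, turned with a pseudocount of 1 (-0.007), with replicates 1 to 3 (-0.093), without WT1 (-0.02), WT4 (-0.006) or KO4 (-0.063), and ranged from -0.063 to 0.069 over leaving out 1 library. Genes past the unadjusted threshold numbered 767, 347 to 2922 over leaving out 1 library (highest without WT1), 2430 without both WT1 and WT3, which was chosen after seeing the data as was the ratio with no pseudocount, and 1129 with no filter on low values. Genes higher in KO numbered 292 to 1810 over leaving out 1 library, 402 with median-ratio scaling, 378 with quantile normalization and 1381 without both WT1 and WT3. Genes lower in KO numbered 35 to 1112 over leaving out 1 library, 208 with no filter, 363 with median-ratio scaling, 547 with quantile normalization, 42 with replicates 1 to 3 and 1049 without both. The deviations of libraries with the same replicate number did not correlate positively for all 4 numbers (r = 0.419, -0.24, -0.17 and 0.21 for numbers 1 to 4), so the numbers were not taken to pair the libraries. The replicate block gave 838 calls. The cause of these shifts was not tested. No read counts were used, so the number of reads behind Bsnd, below 1 FPKM, is unknown.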
